A study of Mus musculus with 20 samples.

Results

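Integrin and laminin genes were examined in C2C12 cells given BMP4 or 1 of 3 compounds. The genes were taken by symbol, namely Itga or Itgb followed by a letter or digit and a short ending, and Lama, Lamb or Lamc followed by a digit. This rule found 37 of the 22180 genes that the platform annotation names by a single symbol. Among them were 26 integrin subunits and 10 laminin chains, and the symbol pattern also took Itgb3bp, which encodes a centromere protein and is no subunit. Itga10 was not analysed here. All 37 genes were tested, since no filter on low signals was used.

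C2C12 is an established mouse myoblast line that forms muscle fibres in culture and can turn towards bone-forming cells when given a bone morphogenetic protein. RNA of the cells was hybridised to Affymetrix mouse arrays, and the study set the effects of 3 compounds on myoblasts beside those of BMP4. The compounds carry only the code names 942, 178 and 181. All arrays came from this line, in medium with serum, and no time between treatment and RNA extraction is given in the sources used here.

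The groups comprised untreated cells (n = 2), cells in methanol (MeOH, n = 3), cells in recombinant BMP4 at 10, 100 or 300 ng/ml (n = 2 at each dose) and cells in compound 942, 178 or 181 at 6.25, 12.5 or 25 µM (n = 1 at each dose). The compounds were set against methanol, taken as their vehicle, and BMP4 against untreated cells. The treatment protocol names neither 12.5 µM nor 100 ng/ml, which stand in the sample titles. Nothing in the labels ties the arrays of 1 group to separate cultures, and each p-value therefore measures the spread between these arrays, which may be technical.

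The median signal of an array lay between 4.93 and 5.05 on the log2 scale, and arrays of the same group correlated at 0.982 to 0.991 over all probe sets. Replicate 1 of BMP4 at 300 ng/ml and all 3 arrays of compound 942 were labelled by a method called Affyexpress, and the other arrays by the standard method. The label protocol speaks of a batch correction between the methods, and whether these values had received it is unknown. The fit held a term for this, which rested on the 2 arrays of BMP4 at 300 ng/ml. The fitted value at 300 ng/ml therefore equals replicate 2, and the difference between those 2 arrays enters every value of compound 942. Myoblast markers were high in the controls (mean of the 6 genes 10.6 to 10.7) and 5 of 6 fell under BMP4, where the mean ranged from 8.69 to 10.7. Of the 4 osteoblast markers 3 rose under BMP4, from a mean of 4.50 to 4.71 in the controls to between 4.61 and 8.16. The bulk signal cannot tell fewer cells of a type from less RNA per cell, and the part of this shift in the results below was not tested. Endothelial (6), leukocyte (6), epithelial (5), Schwann cell (2) and platelet (2) markers had no called gene, with list means between 3.98 and 5.33 in controls and BMP4.

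Integrins are receptors that span the cell membrane as a pair of an alpha and a beta subunit and tie the cytoskeleton to the matrix outside. Laminins are cross-shaped trimers of an alpha, a beta and a gamma chain and form the scaffold of basement membranes, including the sheath around each muscle fibre. In muscle the alpha7 and beta1 subunits pair into the main laminin receptor of the integrin family, and laminin alpha2 is the main alpha chain of the fibre's sheath.

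Promoters are shown for 4 genes whose results are compared below: Itga1 and Itga11, which rose together, and Lamb1 and Lamb2, beta chains that moved in opposite directions. The RefSeq promoter table (build GRCm38.p6) held 24 of the 37 genes and 8 of the 12 called under BMP4. It gave a single start for 21 of them. The 250 bases before the start are printed 5′ to 3′ on the gene's strand, at chr13:115101965-115102214 (minus strand) for Itga1, chr9:62677605-62677854 (plus strand) for Itga11, chr12:31265043-31265292 (plus strand) for Lamb1 and chr9:108479612-108479861 (plus strand) for Lamb2. Capitals mark matches, on either strand, to GGCGCC and to CAGAC, both of them sequences that SMAD proteins are known to bind (the latter reads GTCTG on the other strand), and to CANNTG, the E-box of the myogenic factors. No matches overlapped in these 4 stretches.
Itga1: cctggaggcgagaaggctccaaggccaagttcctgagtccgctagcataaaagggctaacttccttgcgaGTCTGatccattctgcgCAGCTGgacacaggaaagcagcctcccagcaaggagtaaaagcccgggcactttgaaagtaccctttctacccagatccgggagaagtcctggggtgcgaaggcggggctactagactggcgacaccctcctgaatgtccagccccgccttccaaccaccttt
Itga11: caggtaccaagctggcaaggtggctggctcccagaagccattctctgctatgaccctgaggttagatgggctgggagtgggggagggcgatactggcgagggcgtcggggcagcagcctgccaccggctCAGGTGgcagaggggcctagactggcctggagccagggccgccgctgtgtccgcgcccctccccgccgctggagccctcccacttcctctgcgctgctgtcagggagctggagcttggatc
Lamb1: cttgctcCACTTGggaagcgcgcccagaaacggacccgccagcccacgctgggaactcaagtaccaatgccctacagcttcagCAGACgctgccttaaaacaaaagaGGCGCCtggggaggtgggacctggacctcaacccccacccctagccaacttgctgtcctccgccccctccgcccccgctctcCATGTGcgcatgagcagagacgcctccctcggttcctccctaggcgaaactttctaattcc
Lamb2: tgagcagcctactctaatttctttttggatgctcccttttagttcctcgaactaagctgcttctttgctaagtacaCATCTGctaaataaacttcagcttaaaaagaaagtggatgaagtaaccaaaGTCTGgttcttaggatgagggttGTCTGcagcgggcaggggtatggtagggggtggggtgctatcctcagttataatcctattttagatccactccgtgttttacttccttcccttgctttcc
GGCGCC was present in Lamb1 alone of the 4, and in 9.59% of all 32851 promoter entries of the table. CAGAC or its reverse complement was present in Itga1, Lamb1 and Lamb2 (2 sites) and absent from the Itga11 stretch, against 42.2% of all promoter entries. An E-box was present in all 4 and in 66.2% of all entries. These matches describe the letters and show no binding.

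The first comparison asked which integrin and laminin genes BMP4 changed, over the mean of its 3 doses minus untreated cells. Of the 37 genes 6 rose and 6 fell at an adjusted p under 0.05, whereas over all 22180 genes 4.20% rose and 4.60% fell. Those that rose were Itga1, Itga11, Itgb3, Lama4, Lamb2 and Lamb3, and those that fell were Itga6, Itga7, Itgb6, Itgb8, Lama5 and Lamb1. The median difference of the 37 genes was -0.03 on the log2 scale against -0.01 over all genes, and the differences ran from -1.62 to 1.33. In limma 16 of the 37 had an unadjusted p under 0.05, against 19.9% of all genes. Values below are log2 signals per array and log2 differences with their SE and Benjamini-Hochberg adjusted p from limma.

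**Figure D1:**
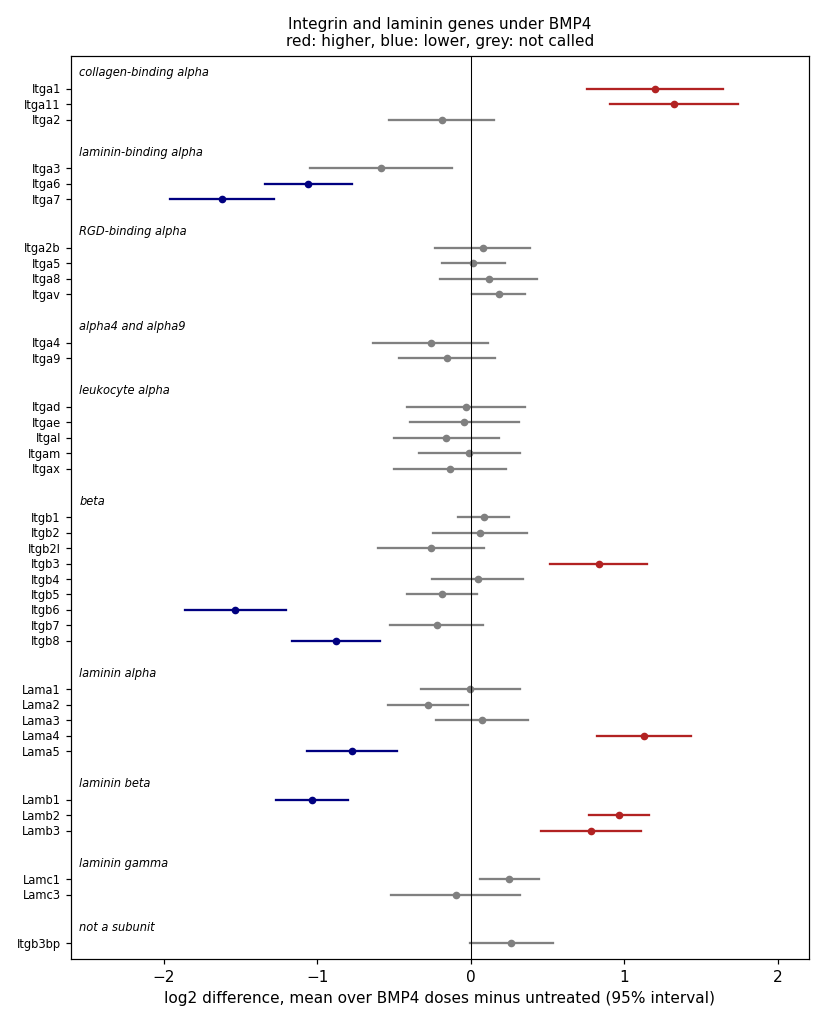
Log2 difference (mean over the 3 BMP4 doses minus untreated, x axis) of each of the 37 genes, grouped by role, with the 95% interval as a line; red marks genes called higher, blue lower and grey not called. The called collagen-binding and laminin-binding alpha genes lie on opposite sides of 0, from 1.33 for Itga11 to -1.62 for Itga7.

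Among the collagen-binding alpha subunits, Itga1 and Itga11 rose and Itga2 did not pass the test. Itga1 encodes the alpha1 subunit, a receptor for collagens of basement membranes. Its signal was 4.21 and 4.27 in untreated cells, 4.83 and 4.37 at 10 ng/ml BMP4, 5.98 and 5.27 at 100 ng/ml, and 6.18 and 6.11 at 300 ng/ml. All 6 BMP4 arrays were above both untreated arrays, and replicate 2 at 10 ng/ml lay within 0.1 of the higher of them. The difference was 1.20 (SE 0.20, adjusted p = 0.00256). Both untreated signals were below the lowest array median of 4.93, and with no detection call no fold is given.

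Itga11 encodes alpha11, a receptor for fibrillar collagen known from fibroblasts. It read 6.19 and 6.21 in untreated cells, 7.06 and 6.30 at 10 ng/ml, 7.74 and 7.57 at 100 ng/ml, and 7.99 and 8.24 at 300 ng/ml. The untreated arrays were the lowest 2 of these 8, and every array at 100 or 300 ng/ml was above every array at 10 ng/ml. It rose by 1.33 (SE 0.19, adjusted p = 0.000909), or 2.51-fold. Itga2, which encodes the collagen receptor subunit alpha2 of platelets and epithelium, stood at -0.19 (adjusted p = 0.606).

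The laminin-binding alpha subunits went the other way: Itga6 and Itga7 fell 2.08-fold and 3.08-fold, and Itga3 stood at -0.59 without passing the test. Itga7 is the laminin receptor subunit of muscle. Its signal was 11.79 and 11.69 in untreated cells and 10.73 and 11.29 at 10 ng/ml. At 100 ng/ml it was 9.49 and 10.06, and at 300 ng/ml 9.50 and 9.57. Every BMP4 array was below every control array, methanol included (11.69, 11.74 and 11.67). The difference was -1.62 (SE 0.15, adjusted p = 5.12e-05).

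Itga6, the laminin receptor subunit of many epithelia and stem cells, read 9.21 and 9.19 in untreated cells, 8.38 and 8.95 at 10 ng/ml, 7.95 and 7.90 at 100 ng/ml and 7.89 and 7.85 at 300 ng/ml. The 2 higher doses were close together, and the 10 ng/ml arrays lay between them and the controls. The difference was -1.06 (SE 0.13, adjusted p = 0.000316). Itga3 encodes alpha3, which binds laminins of epithelial basement membranes. It read 7.42 and 7.60 in untreated cells, 7.51 and 6.92 at 10 ng/ml, 6.76 and 7.63 at 100 ng/ml and 6.48 and 6.37 at 300 ng/ml. The pairs at 10 and 100 ng/ml were split, with 1 array of each at the untreated level, and the mean difference of -0.59 (SE 0.21) did not pass (adjusted p = 0.127).

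**Figure D2:**
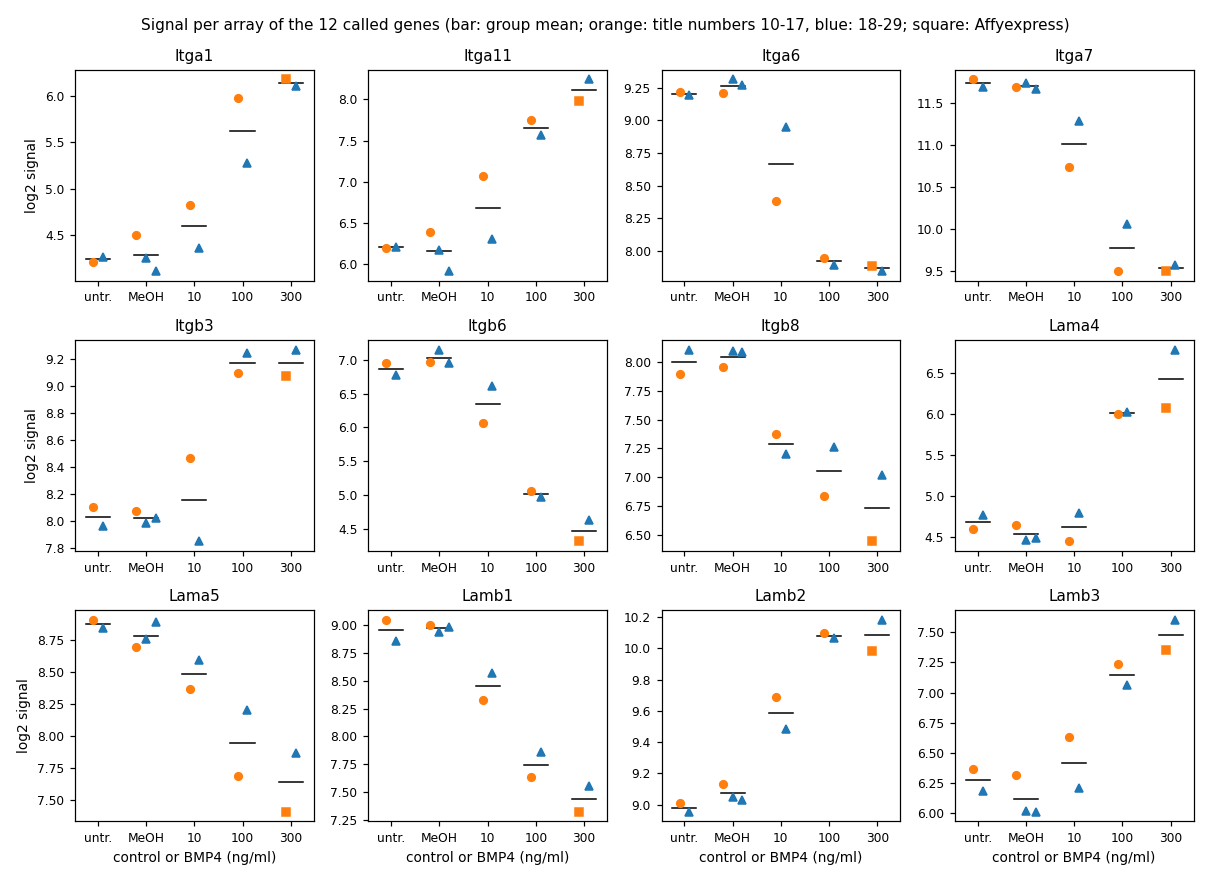
Log2 signal (y axis) of the 12 genes called under BMP4 in untreated cells, methanol and BMP4 at 10, 100 and 300 ng/ml (x axis), 1 point per array with the group mean as a bar; colours mark the 2 runs of title numbers and squares the Affyexpress array. Itga7 falls from between 11.67 and 11.79 in the controls to 9.50 and 9.57 at 300 ng/ml, and Lama4 leaves the control range at 100 ng/ml and not at 10 ng/ml.

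None of the 4 alpha subunits that bind the RGD sequence of fibronectin or vitronectin passed over the mean of doses. Itgav, whose product pairs with several beta subunits, read 9.81 and 9.71 in untreated cells, 9.76 and 9.67 at 10 ng/ml, 9.97 and 10.01 at 100 ng/ml and 10.16 and 10.12 at 300 ng/ml. Its arrays at the 2 higher doses were above both controls and those at 10 ng/ml were not, and its difference was 0.18 (SE 0.078, adjusted p = 0.213). A second Itgav probe set stood at 0.30 (adjusted p = 0.335). The fibronectin receptor subunit gene Itga5 (0.02, adjusted p = 0.961), Itga8 (0.12, adjusted p = 0.759) and the platelet subunit gene Itga2b (0.08, adjusted p = 0.846) showed no called difference.

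Itga4 encodes alpha4, a receptor for VCAM-1 and fibronectin. Its signal was 7.07 and 7.32 in untreated cells, 6.48 and 6.83 at 10 ng/ml, 6.81 and 6.56 at 100 ng/ml and 7.08 and 7.46 at 300 ng/ml. The 4 arrays at the lower doses were below both controls and the 300 ng/ml pair was not, and the mean difference of -0.26 was not called (adjusted p = 0.480). Itga9 stood at -0.15 (adjusted p = 0.661). The 5 alpha genes of leukocyte integrins (Itgad, Itgae, Itgal, Itgam and Itgax) had no called difference, with values from -0.16 to -0.01. Itgal, which encodes the alpha subunit of LFA-1, read 4.94 and 4.83 in untreated cells, 4.37 and 4.82 at 10 ng/ml, 4.80 and 4.79 at 100 ng/ml and 4.84 and 4.79 at 300 ng/ml (-0.16, adjusted p = 0.685). Only replicate 1 at 10 ng/ml stood apart.

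Of the 9 beta subunit genes, Itgb3 rose, Itgb6 and Itgb8 fell, and the other 6 did not pass. Itgb1 encodes the beta1 subunit that pairs with alpha1, alpha3, alpha6, alpha7 and alpha11. It read 10.52 and 10.60 in untreated cells, 10.51 and 10.60 at 10 ng/ml, 10.53 and 10.63 at 100 ng/ml and 10.70 and 10.80 at 300 ng/ml. The groups overlapped up to 100 ng/ml, and both 300 ng/ml arrays were above the controls. Its difference was 0.08, with a 95% interval from -0.08 to 0.25 (adjusted p = 0.638).

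Itgb3, Itgb5, Itgb6 and Itgb8 encode partners of the alphav subunit. Itgb3 read 8.10 and 7.96 in untreated cells, 8.46 and 7.85 at 10 ng/ml, 9.10 and 9.24 at 100 ng/ml and 9.07 and 9.27 at 300 ng/ml. The 10 ng/ml arrays fell on either side of the controls and the 4 arrays above that dose were all higher (0.83, SE 0.14, adjusted p = 0.00295, 1.78-fold).

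Itgb6, whose product joins alphav in a receptor known for activating latent TGF-beta, had the lowest difference of the beta genes. It read 6.95 and 6.77 in untreated cells, 6.07 and 6.61 at 10 ng/ml, 5.06 and 4.96 at 100 ng/ml and 4.31 and 4.63 at 300 ng/ml. Every BMP4 array was below both controls, and no array of a higher dose was above one of a lower dose. The difference was -1.53 (SE 0.15, adjusted p = 6.43e-05), with no fold given because the signals at 300 ng/ml were below the array medians.

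Itgb8, which encodes another alphav partner known for activating latent TGF-beta, read 7.90 and 8.10 in untreated cells, 7.38 and 7.20 at 10 ng/ml, 6.84 and 7.27 at 100 ng/ml and 6.45 and 7.02 at 300 ng/ml. All 6 BMP4 arrays were below both controls, but the doses overlapped one another. The difference was -0.88 (SE 0.13, adjusted p = 0.00114), or 1.84-fold. Itgb5 stood at -0.19 (adjusted p = 0.377). Itgb4 (0.05), whose product pairs with alpha6 in hemidesmosomes, the leukocyte genes Itgb2 (0.06) and Itgb7 (-0.22, adjusted p = 0.450), and Itgb2l (-0.26, adjusted p = 0.429) were not called.

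Among the 5 laminin alpha chains, Lama4 rose, Lama5 fell and Lama1, Lama2 and Lama3 did not pass. Lama4 encodes the alpha4 chain of vessel, fat and developing muscle basement membranes. It read 4.59 and 4.76 in untreated cells, 4.44 and 4.79 at 10 ng/ml, 5.99 and 6.03 at 100 ng/ml and 6.07 and 6.78 at 300 ng/ml. The 10 ng/ml pair overlapped the controls and the 4 other arrays were all above them. The difference was 1.13 (SE 0.14, adjusted p = 0.000345), with no fold given because the untreated signals were below the array medians. The 300 ng/ml arrays were 0.71 apart, replicate 1 being the Affyexpress array, so the fitted 300 ng/ml difference was 2.11 with the labelling term and 1.75 without it.

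Lama5 encodes the alpha5 chain, which is widespread in basement membranes of grown tissue. Its signal was 8.91 and 8.84 in untreated cells, 8.37 and 8.59 at 10 ng/ml, 7.69 and 8.21 at 100 ng/ml and 7.41 and 7.87 at 300 ng/ml. All BMP4 arrays were below both controls, and replicate 2 was the higher array at each dose (-0.77, SE 0.13, adjusted p = 0.00301). Lama2, the alpha chain of the muscle fibre sheath, read 9.23 and 9.03 in untreated cells, 9.13 and 9.16 at 10 ng/ml, 8.58 and 8.92 at 100 ng/ml and 8.48 and 8.66 at 300 ng/ml. The 4 arrays at the higher doses lay below the controls, and the mean difference of -0.28 was not called (adjusted p = 0.214).

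All 3 laminin beta chains changed, Lamb2 and Lamb3 upwards and Lamb1 downwards. Lamb1 encodes beta1, the beta chain of most early laminins, and Lamb2 encodes beta2, known from the neuromuscular junction and the kidney filter. Lamb1 read 9.04 and 8.86 in untreated cells, 8.33 and 8.57 at 10 ng/ml, 7.64 and 7.86 at 100 ng/ml and 7.33 and 7.55 at 300 ng/ml. Lamb2 read 9.01 and 8.95 in untreated cells, 9.69 and 9.48 at 10 ng/ml, 10.10 and 10.06 at 100 ng/ml and 9.98 and 10.18 at 300 ng/ml. For both genes the 6 BMP4 arrays did not overlap the controls, in opposite directions. Over all genes, 7.32% had all 6 BMP4 arrays above both untreated arrays and 8.95% had all 6 below. Lamb1 fell by 1.03 (SE 0.11, adjusted p = 9.98e-05) and Lamb2 rose by 0.97 (SE 0.089, adjusted p = 4.14e-05).

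Lamb3 encodes beta3, a chain of epithelial laminin. It read 6.36 and 6.18 in untreated cells, 6.63 and 6.21 at 10 ng/ml, 7.24 and 7.06 at 100 ng/ml and 7.36 and 7.60 at 300 ng/ml. Replicate 2 at 10 ng/ml lay between the untreated arrays and the other 5 BMP4 arrays were above both. It rose by 0.78 (SE 0.15, adjusted p = 0.00572), a call that was lost without untreated replicate 2 (adjusted p = 0.0769) or BMP4 300 ng/ml replicate 2 (adjusted p = 0.0810, over the 2 lower doses only).

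Of the gamma chains, Lamc1, the gamma chain of most laminins, read 8.63 and 8.60 in untreated cells, 8.91 and 8.84 at 10 ng/ml, 8.90 and 8.98 at 100 ng/ml and 8.71 and 8.79 at 300 ng/ml. All 6 BMP4 arrays were above both controls, with the 10 and 100 ng/ml arrays above the 300 ng/ml arrays, but the difference of 0.25 (95% interval 0.06 to 0.44) was not called (adjusted p = 0.108). Lamc3 stood at -0.10. Itgb3bp stood at 0.26 (adjusted p = 0.268).

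In total 10 of the 37 genes had BMP4 arrays that did not overlap untreated cells: Itga1, Itga11, Lamb2 and Lamc1 above, and Itga6, Itga7, Itgb6, Itgb8, Lama5 and Lamb1 below. The sample titles fall into 2 runs of numbers, each with its own untreated array, and the differences were also taken within each run. All 12 called genes kept their direction in both. They had been called on these same arrays, so the split gives no independent support. The share of all genes that kept their direction was not computed. Itga1 stood at 1.45 in the first run and 0.97 in the second, Itga7 at -1.88 and -1.39, and Lama5 at -1.08 and -0.62. Lamb2 (0.91 and 0.96), Lamb3 (0.71 and 0.77), Itgb3 (0.78 and 0.83) and Lama4 (0.91 and 1.11) were larger in the second run. When the 3 doses were given a common mean, Itga11 (adjusted p = 0.0587), Itgb3 (0.0728), Lama4 (0.163) and Lamb3 (0.0889) were no longer called.

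**Figure D3:**
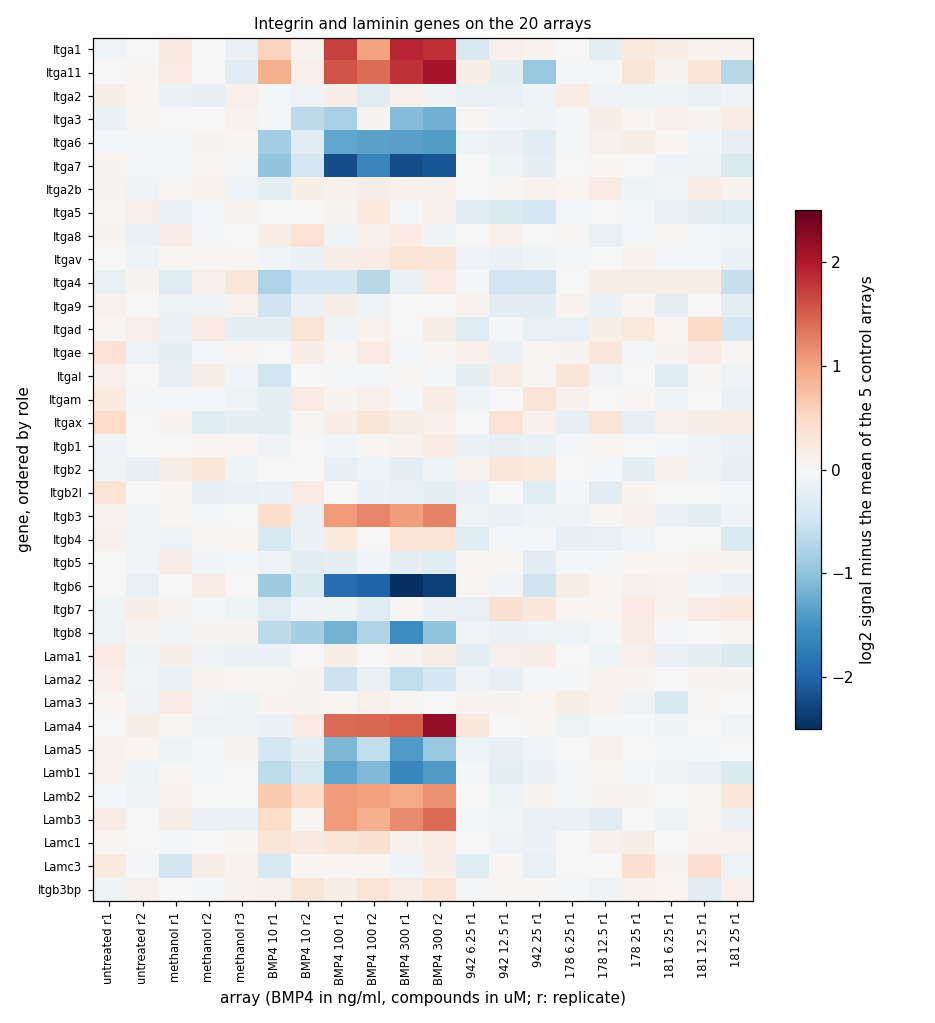
Log2 signal minus the mean of the 5 control arrays (colour, red higher and blue lower) of the 37 genes (rows, by role) on each of the 20 arrays (columns). The strong colours lie in the BMP4 columns at 100 and 300 ng/ml, in the rows of the 12 called genes and Itga3.

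The doses of BMP4 were then compared with untreated cells in turn. These comparisons and the mean above share the same 2 untreated arrays. At 10 ng/ml 1 gene, Lamb2, passed (0.60, SE 0.10, adjusted p = 0.0186), against 1.10% of all genes, and 10 of the 37 had an unadjusted p under 0.05, against 10.0% of all genes. Without untreated replicate 1 or 2, methanol replicate 2 or BMP4 10 ng/ml replicate 1 Lamb2 did not pass (adjusted p from 0.0508 to 0.125) and no gene was left. Set against the 5 control arrays pooled, 6 genes passed at this dose, with no count over all genes beside them. The muscle receptor gene Itga7 stood at -0.73 (adjusted p = 0.0985), Itgb8 at -0.71 (adjusted p = 0.0549) and Lamb1 at -0.50 (adjusted p = 0.104). With a term for the run these 3 genes were called lower beside Lamb2. Lama4 (-0.06) and Itgb3 (0.12) were close to 0 at this dose, whereas Itga11 stood at 0.48 and Itga1 at 0.35, none of them called.

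At 100 ng/ml the 12 genes named above passed, 6 in each direction, against 9.15% of all genes. Itga11 stood at 1.46, Itga1 at 1.38, Lama4 at 1.34 and Itgb3 at 1.14. On the other side Itga7 stood at -1.96, Itgb6 at -1.85, Itga6 at -1.28 and Lamb1 at -1.20. At 300 ng/ml 13 genes passed, 6 up and 7 down, against 7.98% of all genes. The added gene was Itga3 (-1.14, adjusted p = 0.0398), which was lost without either untreated array (adjusted p = 0.0919 and 0.142) or any of the methanol arrays (adjusted p from 0.0535 to 0.0636). Lama4 (2.11), Itga11 (2.04) and Itga1 (1.86) were the 3 genes with the highest values at this dose, and Itgb6 (-2.23) and Itga7 (-2.17) the lowest.

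A slope of the signal on log2 dose over the 6 BMP4 arrays, with no control in it, asked which genes moved further as the dose rose. It was called for 11 of the 37 genes, 7 upwards and 4 downwards, against 5.40% of all genes, and 16 had an unadjusted p under 0.05, against 16.2% of all genes. Per doubling of the dose Lama4 rose by 0.44 (SE 0.038, adjusted p = 7.49e-05), Itga11 by 0.31 (adjusted p = 0.00421), Itga1 by 0.31 (adjusted p = 0.00674), Itgb3 by 0.24 (adjusted p = 0.00404) and Lamb3 by 0.24 (adjusted p = 0.00520). Lamb2, which already stood high at 10 ng/ml, had a slope of 0.13 (adjusted p = 0.0102), which was lost with arrays centred on their medians (adjusted p = 0.0503), and Itgav one of 0.083 (adjusted p = 0.0473), which was lost with its 2 probe sets averaged (adjusted p = 0.548) and when any of 8 single arrays was left out (adjusted p from 0.0557 to 0.182). The slopes of Itgb6 (-0.36, adjusted p = 0.000454), Itga7 (-0.31, adjusted p = 0.00140), Lamb1 (-0.19, adjusted p = 0.00316) and Itga6 (-0.18, adjusted p = 0.0133) were negative. Itgb8, whose group means were 8.00 in untreated cells and 7.29, 7.05 and 6.73 with rising dose, had no called slope (-0.06, adjusted p = 0.501), nor had Lama5 (-0.13, adjusted p = 0.0695). The mean of 6.73 takes in the Affyexpress array, which had no weight in that slope. Without the labelling term the slope of Lama5 was called and that of Itgb8 was not. Without BMP4 10 ng/ml replicate 2 the slopes of Itga1 (adjusted p = 0.0708), Itga6 (0.0544), Lamb2 (0.0693) and Itgav (0.176) did not pass and the count was 7.

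Other genes of the pathway were read from 3 lists. Of 25 measured adaptors and kinases that integrins recruit inside the cell, 6 fell, none rose and 19 were not called, with a median of -0.11. Over all genes in this comparison 4.20% rose and 4.60% fell, with a median of -0.01, and the same holds beside the next 2 lists. Itgb1bp2 (melusin), a muscle protein that binds the beta1 tail, stood at -1.88 (adjusted p = 0.000187), the kinase gene Ptk2b at -1.02 (adjusted p = 0.000147) and the focal adhesion protein gene Zyx at -0.60 (adjusted p = 0.00423). Pxn, Bcar1 and Vasp also fell.

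Of 21 measured basement membrane partners and other laminin receptors, 3 rose and 4 fell, with a median of 0.0024. Sgcd (1.44, adjusted p = 0.000602) and Sgce (0.56, adjusted p = 0.00371) encode sarcoglycans of the dystrophin complex, and Sparc (0.44, adjusted p = 0.00192) a collagen-binding matrix protein. Ntn4, a laminin-related netrin, fell by 1.06 (adjusted p = 0.00387), the laminin alpha5 receptor gene Bcam by 1.01 (adjusted p = 0.000907) and Nid1, whose product links laminin to collagen IV, by 0.59 (adjusted p = 0.00243). Col18a1 was the other that fell (-0.59, adjusted p = 0.0447).

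Of 18 measured ligands of integrins other than laminins, 5 rose and 1 fell, with a median of 0.16 against -0.01 over all genes. Postn (periostin, 2.90, adjusted p = 2.87e-06), Ccn2 (1.47, adjusted p = 0.000137) and Tgfbi (1.13, adjusted p = 0.0110) encode secreted matrix proteins, and Ccn1 and Thbs1 also rose. Vcam1, which encodes the ligand of alpha4, fell by 0.89 (adjusted p = 0.00154). The myoblast marker genes Myog (-2.88) and Cdh15 (-2.12) fell and the osteoblast genes Sp7 (3.97) and Alpl (3.18) rose in the same comparison.

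The second set of comparisons asked whether any compound moved these genes from methanol. In limma no gene of the 37 passed in the mean over doses of 942, 178 or 181, where 0%, 0% and 0.00451% of all genes passed. None passed at any dose, with 0% of all genes called at each dose of 942 and 178 and at the lower doses of 181, and 0.0180% at 25 µM of 181. Methanol itself did not differ from untreated cells in any of the 37 (0% of all genes called, none with an unadjusted p under 0.05, differences from -0.38 to 0.26). The median SE of a mean difference was 0.139 for 178 and 181 and 0.278 for 942, so the precision was lower for 942. In the 3 pathway lists no gene was called for any compound. The mean differences of the 37 genes ran from -0.28 to 0.87 for 942, from -0.19 to 0.21 for 178 and from -0.22 to 0.30 for 181.

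For compound 942, with the labelling term, the genes farthest from methanol were Lama4 (0.87, 95% interval 0.28 to 1.47), Itgb8 (0.44, -0.11 to 0.99) and Itgam (0.38, -0.25 to 1.01). In that fit Lama4 was the single gene with an unadjusted p under 0.05, in the mean and at each dose, and its adjusted p in the mean was 0.9999. Its arrays read 4.85, 4.58 and 4.64 at 6.25, 12.5 and 25 µM and methanol 4.64, 4.45 and 4.49, so the 2 groups overlapped. Itgb8 read 7.96, 7.88 and 7.90 against 7.95, 8.09 and 8.09, and Itgam 3.84, 3.94 and 4.28 against 3.90, 3.91 and 3.81. In these signals both genes overlapped methanol as well. Without the labelling term the 3 values were 0.16 (-0.21 to 0.53), -0.13 (-0.45 to 0.20) and 0.15 (-0.16 to 0.45). The value of Lama4 in 942 thus depended on the 2 arrays of BMP4 at 300 ng/ml. Without the term other genes were farthest, namely Itga4 (-0.37, -0.73 to -0.01), Itga11 (-0.32, -0.71 to 0.06) and Itga5 (-0.31, -0.51 to -0.12). The intervals of Itgb1 (-0.20, -0.35 to -0.04) and Itgav (-0.16, -0.32 to -0.01) then also lay below 0, and that of Lama4 did not exclude it. None of these was called without the term (adjusted p = 0.9996), and with or without it no gene of the 37 was called in 942. Itgb1 read 10.46, 10.40 and 10.43 in 942 against 10.59, 10.64 and 10.66 in methanol, and Itgav 9.72, 9.65 and 9.72 against 9.85, 9.86 and 9.88. Both genes lay below all methanol arrays in 942, where treatment and labelling method differ together. They also lay below all methanol arrays in 181. There Itgb1 read 10.56, 10.51 and 10.44, and Itgav 9.77, 9.80 and 9.67. The mean differences in 181 were -0.13 (95% interval -0.29 to 0.03) and -0.12 (-0.28 to 0.05), neither called. In the remaining compound both genes overlapped methanol. How many of all genes separate in this way was not computed. Untreated cells had means of 10.56 (SD 0.06) for Itgb1 and 9.76 (SD 0.07) for Itgav, also below the methanol means of 10.63 and 9.86. The cause of these differences was not tested.

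For compound 178 the farthest were Lamc3 (0.21, -0.20 to 0.62), Itgb2 (-0.19, -0.49 to 0.10) and Itgae (0.19, -0.15 to 0.53), and no gene had an unadjusted p under 0.05 in the mean or at any dose. Lamc3 read 4.85, 4.85 and 5.24 in 178 at 6.25, 12.5 and 25 µM and 4.37, 5.01 and 4.93 in methanol. Itgb2 read 4.75, 4.69 and 4.52 against 4.89, 5.01 and 4.63, and Itgae 4.47, 4.68 and 4.37 against 4.15, 4.35 and 4.45. Each of the 3 genes overlapped methanol.

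For compound 181 the farthest were Itgax (0.30, -0.05 to 0.65), Lama1 (-0.22, -0.53 to 0.09) and Lamb1 (-0.20, -0.43 to 0.02). Itgax read 4.16, 4.21 and 4.25 at 6.25, 12.5 and 25 µM and 4.12, 3.75 and 3.84 in methanol. Lama1 read 4.36, 4.32 and 4.18 against 4.69, 4.43 and 4.39. Lamb1 read 8.87, 8.81 and 8.62 against methanol arrays from 8.93 upwards. In all 3 genes the 181 arrays lay on 1 side of the methanol arrays, and in none did the mean difference reach an unadjusted p under 0.05. These genes were picked as the farthest from methanol on these same arrays, which favours such a separation. The share of all genes separated in this way was not computed. Untreated cells had means of 4.29 (SD 0.33) for Itgax, 4.59 (SD 0.22) for Lama1 and 8.95 (SD 0.13) for Lamb1. The 181 arrays of Itgax were thus close to the untreated mean.

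At 25 µM of 181 the collagen receptor gene Itga11 (-0.68, 95% interval -1.24 to -0.11, adjusted p = 0.674), Itga4 (-0.61, -1.12 to -0.10, adjusted p = 0.666) and Lamb1 (-0.35, -0.67 to -0.03, adjusted p = 0.723) had an unadjusted p under 0.05. At the lower doses of 181 such genes were Lama3 at 6.25 µM (-0.42, -0.82 to -0.01) and Itgad at 12.5 µM (0.53, 0.01 to 1.05). Itga11 read 6.24, 6.49 and 5.48 in 181, 6.34, 5.93 and 5.22 in 942 and 6.14, 6.15 and 6.47 in 178 at 6.25, 12.5 and 25 µM, and 6.38, 6.17 and 5.91 in methanol. The 25 µM arrays of 181 and 942 were below all 5 control arrays, and that of 178 was above them, with 1 array each and no replicate check at a dose. For 942 at 25 µM Itga11 stood at -0.67 with the labelling term and at -0.93 without it (-1.48 to -0.38, adjusted p = 0.830). Itga4 read 7.41, 7.39 and 6.67 in 181, 7.19, 6.76 and 6.79 in 942, 7.25, 7.41 and 7.40 in 178, and 6.93, 7.38 and 7.54 in methanol.

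**Figure D4:**
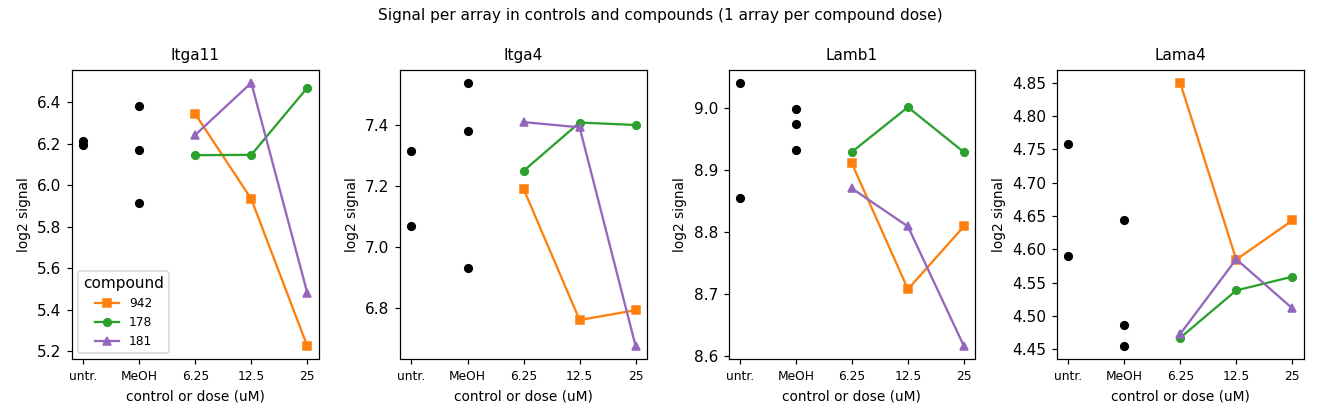
Log2 signal (y axis) of Itga11, Itga4, Lamb1 and Lama4 in untreated cells, methanol (black points) and the 3 compounds at 6.25, 12.5 and 25 µM (x axis), with 1 array at each compound dose; lines join the doses of a compound. Itga11 at 25 µM reads 5.22 in 942 and 5.48 in 181, below the controls, and 6.47 in 178.

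The compounds were also compared with one another in 12 contrasts, the 3 pairs in the mean over doses and at each matched dose. No gene of the 37 passed in any (0% of all genes called in each, except 0.00451% in the mean of 181 minus 178). At 25 µM 181 minus 178 was -0.99 for Itga11 (95% interval -1.69 to -0.30, adjusted p = 0.741), -0.73 for Itga4 (-1.35 to -0.10, adjusted p = 0.822) and -0.66 for Itgad (-1.30 to -0.03, adjusted p = 0.871), the 3 genes with an unadjusted p under 0.05 there. At 6.25 µM they were Itgal (-0.60, -1.17 to -0.03) and Lama3 (-0.55, -1.05 to -0.05), and at 12.5 µM there was none. In the mean over doses the only such gene was Itga5 (-0.22, -0.42 to -0.02, adjusted p = 0.918). Its signals were 9.40, 9.35 and 9.28 in 181 and 9.56, 9.60 and 9.53 in 178, which did not overlap. In 942, labelled by the other method, it read 9.31, 9.22 and 9.14. The differences of 942 from 178 and 181 in the mean were widest for Lama4, at 0.88 (0.29 to 1.47) from each with the labelling term and 0.17 (-0.20 to 0.54 from 178) without it. All 942 arrays had title numbers of the first run, and all 178 and 181 arrays those of the second. Contrasts of 942 with 178 or 181 therefore differ in run and labelling method as well as in compound.

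Genes that BMP4 moved most had these values in the compounds. Itga7 read 11.72, 11.61 and 11.50 at 6.25, 12.5 and 25 µM of 942, 11.70, 11.76 and 11.70 in 178 and 11.62, 11.62 and 11.36 in 181, against 11.67 to 11.79 in the controls. Itgb6 read 6.99, 6.89 and 6.46 in 942, 7.11, 6.99 and 7.07 in 178 and 7.04, 6.90 and 6.78 in 181, against 6.77 to 7.15 in the controls. For both genes the lowest arrays of 942 and 181 were those at 25 µM, and the differences there for 181 were -0.34 (-0.80 to 0.12) and -0.24 (-0.69 to 0.21). For 942 at 25 µM Itga7 stood at -0.13 (-0.86 to 0.59) with the labelling term and -0.20 (-0.63 to 0.23) without it. Itgb6 stood at -0.25 (-0.96 to 0.46) with the term and -0.57 (-1.02 to -0.12) without it, and its array lay below all controls. Neither gene was called in either fit.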

How the data were processed

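Per the labels, total RNA of C2C12 cells was hybridised to Affymetrix arrays, and the deposited values are log2 signals, 1 per probe set and array. RMA in Partek 6.5 produced them, per the submitters' processing notes. The labels' protocols mention samples labelled by both methods for a batch correction, but not whether the deposited values were corrected, and no counts or detection calls were used. Of 41345 probe sets 23521 had a single symbol in the platform annotation, 1814 several and 16010 none. Each of the 22180 genes was read from its probe set with the highest mean, a choice that concerned 1082 genes. Arrays were grouped by the labels, and replicates were numbered in accession order.

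All 20 arrays were fitted in limma 3.58.1 (R 4.3.3) with 1 mean for each treatment at each dose plus a labelling term, and with moderated variances that follow the mean signal (5 residual and a median of 6.73 prior degrees of freedom). P-values were adjusted by Benjamini-Hochberg over all genes within each contrast, and genes were called at an adjusted p under 0.05. The script was tested on simulated data. A signal per gene does not give the amount of one gene against another.

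The genes, the lists and the rule for naming genes were chosen with earlier results of these data known. Values per array are given for the genes called under BMP4, the gene with the highest mean signal in each role, and the 3 genes farthest from methanol for each compound. Itga5, Itgad, Itga8 and the other genes named with a single value were named to account for every gene, and Itga5 in the compounds was named after its values were seen. Alternatives were the labelling term, a term for the title number runs, the trend, probe sets averaged, quantile normalization again, centring, dim genes left out, a common mean for the doses, other controls, and each array left out.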

Additional observations from a re-analysis of the deposited data

How the results depend on the processing

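The 12 genes called under BMP4 numbered 9 to 14 over the alternatives and 11 to 13 when each array was left out. The lowest count came with a common mean for the doses, where Itga11 (adjusted p = 0.0587), Itgb3 (0.0728), Lama4 (0.163) and Lamb3 (0.0889) were not called and Lamc1 was. With methanol, or untreated and methanol together, as the control, Itga3 and Lamc1 were called as well. The count over all 22180 genes moved too. It was 1643 without a trend, 1775 with a common mean for the doses and 2472 with methanol as the control. With untreated and methanol together as the control it was 3354. Without the Affyexpress arrays the count was 12, and without both BMP4 10 ng/ml arrays 13, both alternatives chosen after seeing the data.

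The counts at 10 ng/ml and by slope are given here without those of all genes, so their changes were not set against a background. The count at 10 ng/ml depended on the setting. It was 4 with a term for the run, 0 without a trend, 2 after quantile normalization again, 2 among genes above the median signal only, 3 with methanol as the control, 6 with untreated and methanol together as the control, and 0 to 3 when each array was left out. The slope count ranged from 7 to 14 when each array was left out. At 100 ng/ml Lamb3 was not called without BMP4 100 ng/ml replicate 1 (adjusted p = 0.0623) or untreated replicate 2 (0.0692). The slope of Itgav did not pass with probe sets averaged (0.548), arrays centred (0.205) or no trend (0.156), nor without either untreated array, any methanol array, either BMP4 10 ng/ml array or BMP4 300 ng/ml replicate 2 (0.0557 to 0.182). That of Lamb2 did not pass with arrays centred (0.0503). For 942, Lama4 was -0.30 with a common mean for the doses and Itgb8 was -0.13 without the labelling term. The cause of these changes was not tested. Counts for the compounds, methanol and the differences between compounds were 0 under every alternative run. Among single genes outside the arrays left out, 509 values kept direction and side of the threshold, 10 lost the call and 2 reversed, and with arrays left out 1117 kept them and 24 lost the call.

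The labels give the arrays no replicate numbers and so state no pairs. The runs of title numbers were used in place of pairs. A run term gave 13 genes for the mean over doses, 4 at 10 ng/ml, 13 at 100 ng/ml, 15 at 300 ng/ml and 13 by slope. For the mean over doses 2988 of all 22180 genes were called with that term, against 932 higher and 1021 lower without it. The counts at single doses and by slope stand here without those of all genes, and were not set against them. The number of arrays limits precision: with 1 array at each compound dose, the median SE of a difference at a single dose was 0.196 for 178 and 181 and 0.310 for 942. The median of all genes moved by less than 0.1 in every setting.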
